A study of Drosophila melanogaster with 14 samples.

Results

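The comparison set whole heads of flies that carried the Rh1-GAL4 driver and a transgene for FLAG-tagged poly(A)-binding protein against whole heads of Canton-S, and asked which gene functions and families differed by at least 1.5-fold beyond the light-sensing cascade itself. Its members were the 4 head arrays of the first genotype (Rh1 heads) and the 6 head arrays of the second (CS heads), 10 of the 14 arrays of the study. The other 4 arrays held RNA pulled down with the tagged protein and took no part in the test. In Rh1 heads GAL4 stood under the control of the gene for the main rhodopsin, which is active in the outer photoreceptors R1-R6, and the responder, P{UAS-dPABP-FLAG} in one place of the labels and P{UAS-hPABP-FLAG} in another, was therefore aimed at those cells. Whether the protein was the fly or the human form was not settled here. CS heads came from Canton-S, a laboratory wild-type strain with neither insertion. Age, sex and light regime were not given in the sources used here. About 100 frozen heads made up each sample, and about 10 µg of total RNA per sample went into the target for a single-colour Affymetrix fly array. Strain, driver, responder and the prefix of the array names all changed together between the groups, so their effects cannot be told apart. Nothing in the labels said that replicates were separate cohorts, so p-values here reflect how far these samples scattered, and that scatter may be technical.

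Poly(A)-binding protein coats the tail of messenger RNA, and a tagged copy driven in a cell type marks that cell type's transcripts. A fly head holds the compound eyes, the brain with its glia, the fat body that surrounds the brain, muscle, antennae and a shell of cuticle, so that whole-head RNA is a mixture of all of these. Laboratory strains differ in many genes from each other, among them large families of detoxification and cuticle genes.

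The unit throughout is the scaled signal of an array, and fold changes are on the scale of log2(signal + 32), Rh1 heads over CS heads, so that a positive value means higher in Rh1 heads and the change of dim genes is understated. A gene was counted as called when its limma adjusted p was under 0.05 and its fold was at least 1.5. Of 7816 genes tested, 336 (4.30%) were higher and 201 (2.57%) were lower in Rh1 heads, 537 (6.87%) in all. Most of these differences were small. At least 2-fold were 55 of the higher and 47 of the lower genes, and in 519 of the 537 the arrays of both groups did not overlap, which held for 39.1% of all genes tested. A further 3704 genes passed on the p alone with less than a 1.5-fold difference. Just inside the limit stood GstD3, with a fold of 1.5013, and CG4270, with one of 1.5018 in the lower direction. Just outside it stood cold (1.4976) and, in the lower direction, Gart (1.4997). Of the genes tested, 6146 were in none of 78 lists used below. They made up 250 of the higher and 131 of the lower genes. Most genes tested, and most of the calls, thus lay outside these lists. The 78 lists were chosen with earlier results of these data known. Another 7 lists, chosen after their values were seen, are not counted here.

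**Figure D1:**
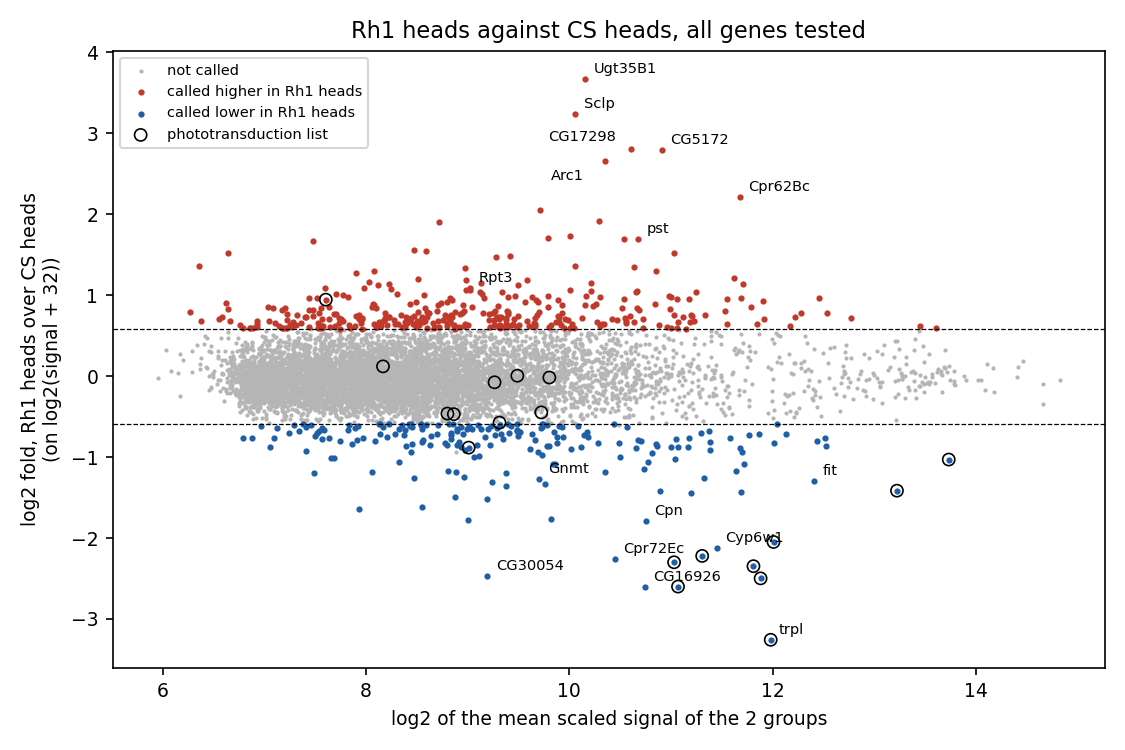
Log2 fold of each tested gene (vertical axis, Rh1 heads over CS heads) against the log2 of its mean signal over both groups (horizontal axis). Each point is a gene, with red for the 336 called higher, blue for the 201 called lower and grey for the rest; black rings mark the phototransduction list and dashed lines the 1.5-fold limit. The largest rise is Ugt35B1 at 3.67 and the largest fall trpl at -3.26.

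The arrays of a group resembled each other closely. Correlations across probe sets were 0.99 to 0.996 within Rh1 heads, 0.988 to 0.996 within CS heads and 0.962 to 0.977 between them. Control probe sets at both ends of 2 housekeeping transcripts separated the groups. The 5′ over 3′ ratio of actin was 0.421 to 0.513 in Rh1 heads and 0.317 to 0.394 in CS heads, and that of eIF-4a was 0.604 to 0.678 in Rh1 heads and 0.444 to 0.593 in CS heads. That of 18S ribosomal RNA stood the other way, with 0.484 to 1.26 in Rh1 heads and 1.48 to 6.58 in CS heads, without overlap. The ratio for GAPDH overlapped, with 0.405 to 0.468 in Rh1 heads and 0.291 to 0.541 in CS heads. The part of these differences in any result below was not tested.

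The makeup of the heads was checked with marker genes of single tissues, summed per array. The 6 photoreceptor markers (chp, Pph13, trp, trpl, inaD and Arr1) summed to 9821 to 10223 in Rh1 heads, against 34229 to 37966 in CS heads. Of the 6, 5 were called lower, and Pph13, with a log2 fold of -0.51, was not. The markers trp, trpl, inaD and Arr1 are also in the phototransduction list below, so this sum is not separate from that list. Sums of neuronal markers overlapped (2771 to 3114 in Rh1 heads, 2629 to 3328 in CS heads), as did those of head muscle (19308 to 21503 in Rh1 heads, 15611 to 23919 in CS heads) and egg shell. The 3 glial markers summed to 2245 to 2516 in Rh1 heads and 1797 to 1934 in CS heads, without overlap, and none was called. The 5 fat body markers (apolpp, Lsp2, Yp1, Yp2 and fit) summed to 67263 to 73743 in Rh1 heads and 79664 to 91892 in CS heads. Of the 5, 1 was called lower, fit. Yp1, Yp2 and fit are also in the list of yolk proteins and sex-biased transcripts below, and the sex of the heads was not given. This sum is therefore not a measure of fat body alone. The 29 midgut proteases on the array summed to 5860 to 6819 in Rh1 heads and 7089 to 7466 in CS heads. Of them 18 were tested and 0 called. The 14 testis genes on the array summed to 3674 to 3919 in Rh1 heads and 4077 to 4477 in CS heads. Of them 9 were tested and 1 was called lower. In fat body, midgut and testis the sums did not overlap. The midgut and testis sums include genes too dim to be tested, so they may hold background signal. No marker was at 0 on every array of a group. In bulk heads, fewer cells of a type and less RNA per cell cannot be told apart.

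Phototransduction is the cascade that turns light into a current through the channels trp and trpl. It held the densest block of falls, with 10 of 19 tested genes lower (52.6%, against 2.57% of all genes). There was 1 gene higher, and the median log2 fold was -0.88. The median over all genes was -0.03. The trp signal was 1049, 1118, 1087 and 1194 on the arrays of Rh1 heads, against a lowest of 5791, a median of 6477 and a highest of 6909 in CS heads. That of trpl was 754, 772, 690 and 743 in Rh1 heads, against 7052, 7298 and 7803 in CS heads, where the 3 values are here and below the lowest, the median and the highest of the 6 arrays. In both channels the groups were far apart. The driver was under the control of a gene of the same cells, and the cause of these falls was not tested.

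Of 20 tested genes that specify photoreceptors or build the rhabdomere, the stack of light-sensing membrane, 2 were lower and 1 higher. These were 10% and 5%, against 2.57% and 4.30% of all genes, and the median was 0.00. The fall was steep for Cpn, which encodes calphotin, a calcium-binding protein of photoreceptors. Its signal was 767, 625, 827 and 786 in Rh1 heads, against a lowest of 2288, a median of 2464 and a highest of 3704 in CS heads, and all 4 arrays of Rh1 heads lay below all 6 of CS heads. The log2 fold was -1.79 (SE 0.12, limma adjusted p = 7.75e-08). The tetraspanin Tsp42Ej, also known as sunglasses and needed to degrade rhodopsin in the lysosome, gave 1204, 1376, 1152 and 1221 in Rh1 heads, against 2870, 3314 and 4231 in CS heads. The groups stood apart, with a log2 fold of -1.44 (SE 0.10, limma adjusted p = 1.21e-07). In a list of 26 tested tetraspanins, chosen after values were seen, it was the 1 called lower. Tsp42Ed (0.91) and Tsp42En (0.65) rose along with Tsp96F (0.61).

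Cpr72Ec, a chitin-binding protein of the corneal lens, the cuticle that covers each eye facet, also fell. Its signal was 431, 427, 451 and 476 in Rh1 heads, against 1478, 2536 and 3018 in CS heads. The arrays of CS heads spread widely, from 1478 upward, and still none reached those of Rh1 heads. The log2 fold was -2.26 (SE 0.19, limma adjusted p = 5.27e-07). In the pull-down arrays, not part of the test, it read 1140 to 1490. Histamine is the transmitter of fly photoreceptors. Of 6 tested genes of histamine and the lamina, the layer of the brain that receives it, 2 fell (33.3%, against 2.57%) and 0 rose, with a median of -0.16. Hdc, the enzyme that makes histamine, gave 196, 195, 166 and 218 in Rh1 heads, against 366, 525 and 601 in CS heads, a log2 fold of -1.26 (SE 0.12, limma adjusted p = 1.1e-06) without overlap. t (tan), which frees histamine for reuse, fell by 1.18 (SE 0.08, limma adjusted p = 9.45e-08). Of 19 tested genes for the screening pigments of the eye 18 were not called, with a median of 0.03. Of 6 tested genes that make and carry the retinoid chromophore, 1 rose. It was ninaB, the enzyme that cleaves carotenoids, with a log2 fold of 0.67 (SE 0.06, limma adjusted p = 8.83e-07).

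The largest rise of all belonged to Ugt35B1, a UDP-glycosyltransferase, the class of enzyme that attaches a sugar to small foreign molecules to make them easier to excrete. Its signal was 2015, 2607, 2020 and 1937 in Rh1 heads, against a lowest of 122, a median of 138 and a highest of 159 in CS heads. Both groups were tight and far apart, with a log2 fold of 3.67 (SE 0.09, limma adjusted p = 8.16e-13), 12.8-fold. Sclp gave 1723, 2614, 1595 and 1890 in Rh1 heads, against 154, 175 and 195 in CS heads, a log2 fold of 3.23 (SE 0.11, limma adjusted p = 3.83e-11). No array of CS heads came near those of Rh1 heads. CG17298 (2.80) and CG5172 (2.79) followed.

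Arc1 encodes a relative of the viral Gag protein that packs its own messenger RNA into capsids and passes between nerve and muscle. Its signal was 2328, 2311, 2265 and 2194 in Rh1 heads, against 284, 331 and 394 in CS heads. The log2 fold was 2.65 (SE 0.08, limma adjusted p = 1.83e-11), and the spread within each group was small beside the gap. The antiviral resistance gene pst (pastrel), which differs between fly strains in its effect on picorna-like virus load, gave 2244, 2887, 1976 and 2964 in Rh1 heads, against 493, 807 and 846 in CS heads. The log2 fold was 1.70 (SE 0.15, limma adjusted p = 6.17e-07), with the groups apart. ftz-f1, a nuclear receptor that acts after ecdysone pulses, gave 705, 486, 499 and 671 in Rh1 heads, against 127, 181 and 221 in CS heads, also without overlap. Its log2 fold was 1.55 (SE 0.12, limma adjusted p = 3.38e-07). Among 23 tested genes of ecdysone and juvenile hormone it was 1 of 2 that rose, the other being Jhbp2 (0.94).

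CG12177 stood apart from the rest of the large rises by its scatter. It read 697, 518, 1255 and 3241 in Rh1 heads, against 179, 256 and 281 in CS heads, so that replicate 4 was more than all the others. Its log2 fold was 2.06 (SE 0.35, limma adjusted p = 0.000248), and 1.55 without that replicate.

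The 2 largest falls outside phototransduction were those of genes without a studied name. CG16926 gave 409, 474, 507 and 444 in Rh1 heads, against 2599, 2888 and 3521 in CS heads, a log2 fold of -2.61 (SE 0.08, limma adjusted p = 2.16e-11). CG30054 gave 194, 153, 131 and 151 in Rh1 heads, against 915, 987 and 1172 in CS heads, a log2 fold of -2.47 (SE 0.09, limma adjusted p = 7.33e-11). Neither gene had an array of Rh1 heads near those of CS heads. SmydA-8, a protein with the SET and MYND domains of methyltransferases, had a log2 fold of -1.76 (SE 0.06, limma adjusted p = 7.83e-11). The splicing factor U2af50, which binds the tract before the 3′ splice site, had a log2 fold of -1.34 (SE 0.11, limma adjusted p = 5.02e-07). Ank2, an ankyrin of axons, fell on its brightest probe set at -1.42, while another probe set of the gene gave 0.04, so that its direction rests on the probe set.

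**Figure D2:**
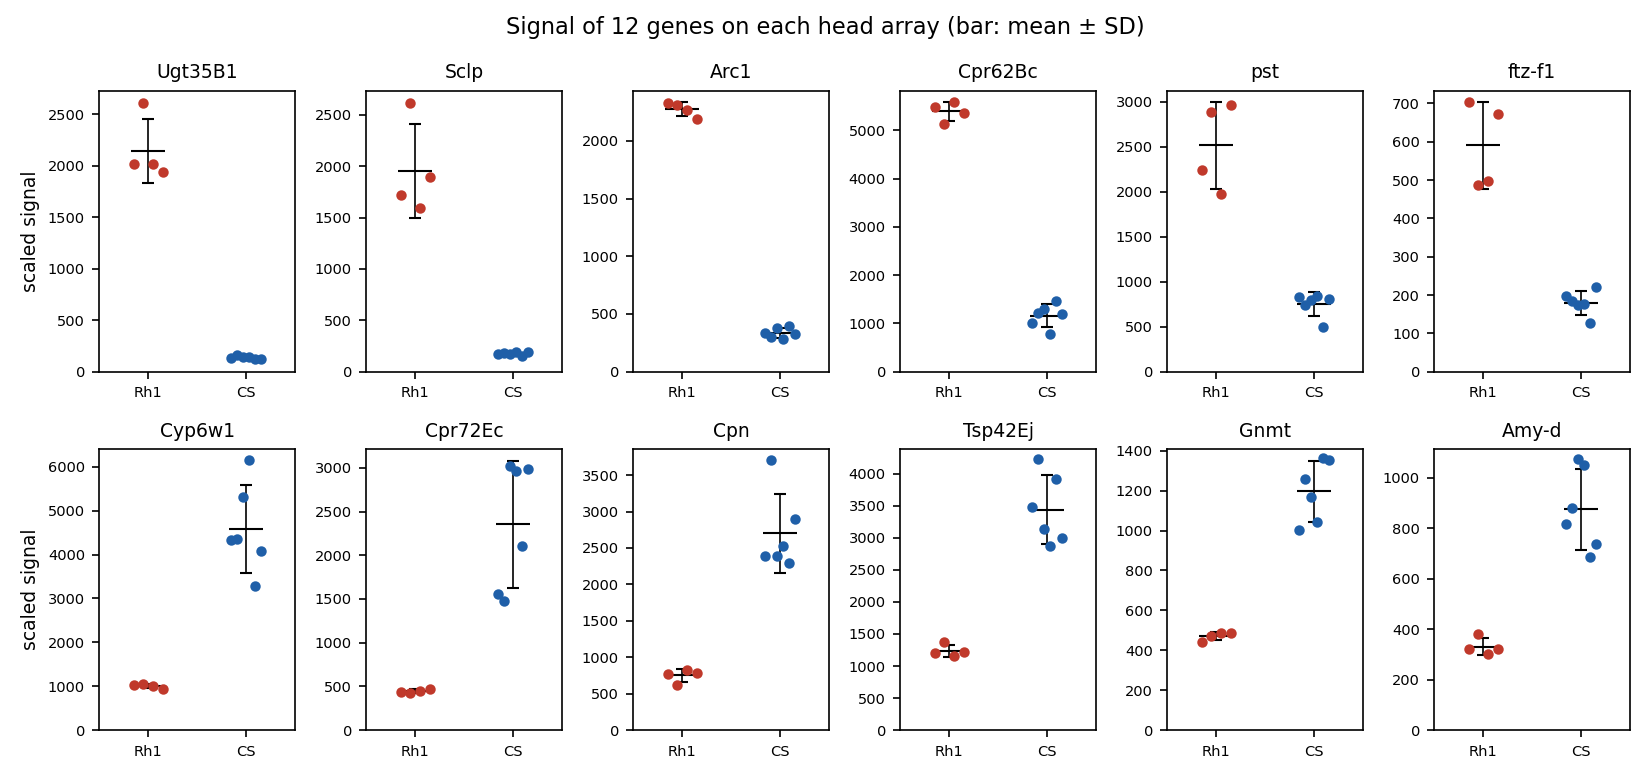
Scaled signal (vertical axes, each from 0) of 12 genes on each array, with Rh1 heads (4 red points) left of CS heads (6 blue points) and the mean ± SD as black bars. The upper 6 genes are higher in Rh1 heads and the lower 6 are lower, and in none of the panels do the groups overlap. Ugt35B1 sits between 1937 and 2607 in Rh1 heads and between 122 and 159 in CS heads.

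The proteasome is the cylinder that degrades proteins marked with ubiquitin: a core particle with the proteases (20S) and a regulatory particle that recognises and unfolds the substrate (19S). Of 34 tested genes 8 were higher (23.5%, against 4.30% of all genes) and 0 lower, with a median log2 fold of 0.41. Rpt3, an ATPase of the base of the regulatory particle, gave 737, 913, 621 and 616 in Rh1 heads, against 302, 315 and 334 in CS heads. The scaffold subunit Rpn6 gave 2201, 3035, 2146 and 2258 in Rh1 heads, against 1193, 1238 and 1387 in CS heads. In both genes the groups did not overlap and replicate 2 of Rh1 heads was the highest. The log2 folds were 1.09 for Rpt3 (SE 0.09, limma adjusted p = 4.66e-07) and 0.89 for Rpn6 (SE 0.09, limma adjusted p = 3.33e-06).

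Among the 28 general subunits and assembly factors all 28 had a log2 fold above 0, and 25 of them passed on the p alone, against 24.2% of all genes in that direction. Their median was 0.51. Of 14 genes of the regulatory particle 7 were called, with Rpt4 at 0.79, Rpn3 at 0.74, Rpn2 at 0.70, Rpt2 at 0.69 and Rpn11, the enzyme that strips ubiquitin, at 0.61. The remaining 7 ranged down to 0.03 for Rpn5. Of the 12 core subunits 1 was called, Prosalpha3 at 0.66, and the rest lay between 0.21 and 0.55. The 6 copies with T or R in their names, several of which serve the testis, had a median of -0.04, and 0 were called. Outside the particle, the ubiquitin-conjugating enzyme Ubc2 rose by 0.78 (SE 0.06, limma adjusted p = 1.98e-07), alone among 19 tested genes of that list. The chaperone list of 24 tested genes had 1 called. The number of proteasome genes called was 7 without replicate 2 of Rh1 heads, and a test of the fold against 1.5 itself (limma treat) passed only Rpt3.

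**Figure D3:**
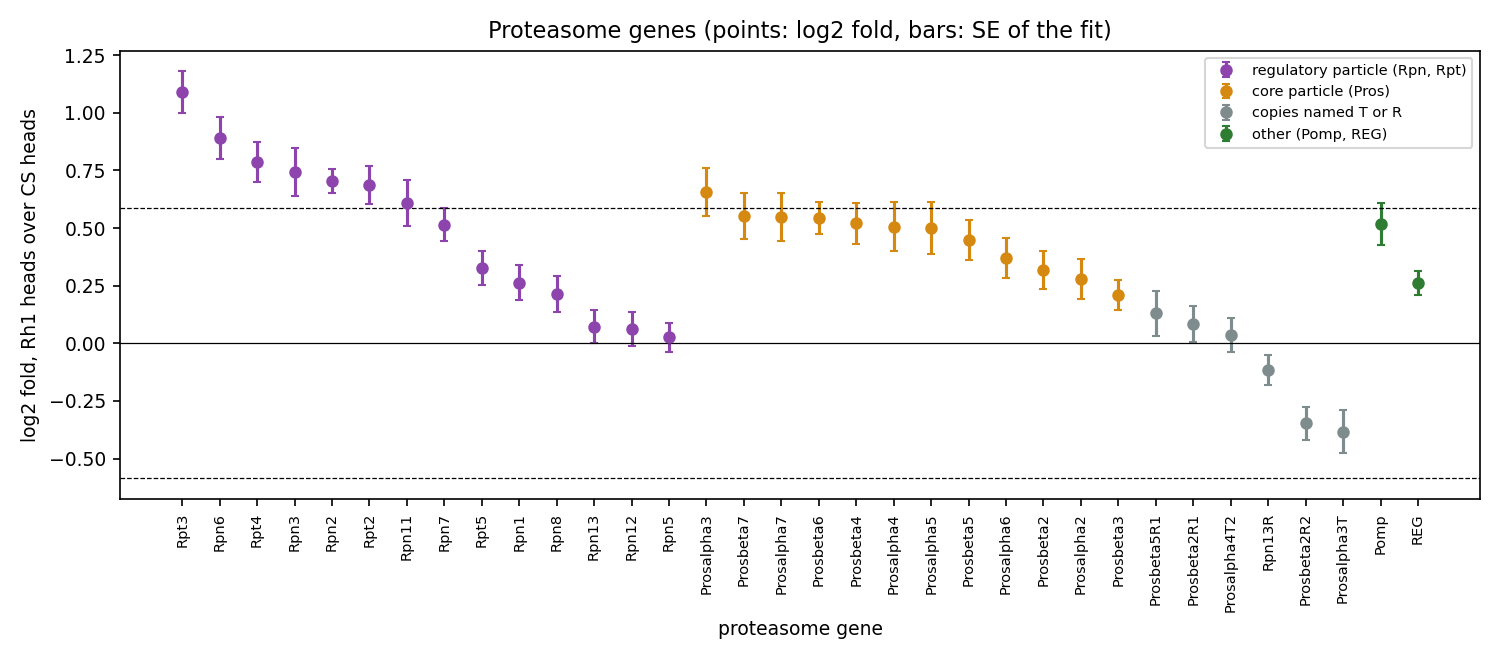
Log2 fold (vertical axis, Rh1 heads over CS heads) of 34 proteasome genes, with bars for the SE of the fit and dashed lines at the 1.5-fold limit. Purple points are the regulatory particle, orange the core, grey the copies named T or R and green the 2 other factors. The purple points spread from 0.03 to 1.09 and the orange from 0.21 to 0.66.

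Cathepsins are proteases of the lysosome. Of 12 tested genes in a list of lysosome and cathepsin genes 1 rose and 1 fell, with a median of 0.03. These were 8.33% each, against 4.30% and 2.57% of all genes. In a list of cathepsins alone, chosen after its values were seen, 3 of 8 tested genes rose and 0 fell. On the p alone 4 passed in the higher and 2 in the lower direction, against 24.2% and 30.0% of all genes. CtsF gave 4587, 4452, 4684 and 4645 in Rh1 heads, against 1491, 2219 and 2394 in CS heads. The arrays of Rh1 heads lay close together and above all of CS heads, with a log2 fold of 1.14 (SE 0.11, limma adjusted p = 2.54e-06). CtsL1 (0.78) and CtsB (0.71) were the others. The sterol carrier of the same organelle, Npc2a, went the other way, with 1937, 2166, 1809 and 1806 in Rh1 heads, against 3184, 3341 and 3952 in CS heads. No array of Rh1 heads reached those of CS heads, and its log2 fold was -0.81 (SE 0.07, limma adjusted p = 1.16e-06).

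Of 18 tested genes of the actin and tubulin cytoskeleton 5 rose (27.8%, against 4.30% of all genes) and 0 fell. The median was 0.36. Profilin, encoded by chic, delivers actin monomers to growing filaments. It gave 2848, 2910, 3058 and 3020 in Rh1 heads, against 1639, 1769 and 1848 in CS heads, with the groups apart and a log2 fold of 0.74 (SE 0.06, limma adjusted p = 1.98e-07). The actin bundlers Fim (0.74) and sn (0.66), the microtubule-associated Map205 (1.07) and the tubulin alphaTub85E (0.62) were the other 4, and the last was read by a probe set that can share sequence with other genes. Outside that list, the formin dia, which nucleates actin filaments, read 173, 161, 136 and 185 in Rh1 heads, against 29.2, 36.5 and 40.8 in CS heads. No arrays overlapped, although the signals of CS heads were near the added 32, and the log2 fold was 1.52 (SE 0.08, limma adjusted p = 2.51e-09). The filament cap tmod had a log2 fold of 1.53 (SE 0.11, limma adjusted p = 1.35e-07) on its brightest probe set and 1.05 and 0.03 on its other 2. The actin-monomer binder cib rose by 1.29 (SE 0.07, limma adjusted p = 4.84e-09).

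Of 22 tested genes of the muscle filaments 3 rose (13.6%, against 4.30% of all genes) and 0 fell, and the median was 0.06. tn (thin), which is needed to maintain muscle, gave 886, 1086, 828 and 915 in Rh1 heads, against 293, 311 and 347 in CS heads, a log2 fold of 1.47 (SE 0.07, limma adjusted p = 2.31e-09). Mlc-c, the light chain of cytoplasmic rather than muscle myosin, rose by 1.13 and the Z-disc protein Zasp66 by 0.95. Paramyosin, a main protein of the thick filament encoded by Prm, averaged 3536 ± 140 in the 4 arrays of Rh1 heads and 3350 ± 731 in the 6 of CS heads (SD), a log2 fold of 0.11 that did not pass. The motors of microtubules did not follow: of 19 tested kinesin and dynein genes 0 were called in limma, with a median of 0.08. On the p alone 5 passed in the higher and 2 in the lower direction, against 24.2% and 30.0% of all genes.

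Septate junctions seal the space between neighbouring epithelial cells, and between the glia that form the blood-brain and blood-eye barriers. In a list of their components and the polarity proteins beside them, chosen after its values were seen, 12 of 32 tested genes rose (37.5%, against 4.30%) and 1 fell, with a median of 0.35. Ssk (snakeskin), a membrane protein of the smooth junctions of gut and tubules, gave 741, 816, 697 and 684 in Rh1 heads, against 239, 279 and 306 in CS heads. The log2 fold was 1.33 (SE 0.07, limma adjusted p = 7.73e-09), and no arrays overlapped. The polarity kinase aPKC gave 389, 321, 340 and 358 in Rh1 heads, against 157, 187 and 196 in CS heads, a log2 fold of 0.85 (SE 0.07, limma adjusted p = 3.55e-07). Its opponent in setting apical and basal sides, l(2)gl, rose by a like amount of 0.85 (SE 0.07, limma adjusted p = 7.78e-07).

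nrv1, one of the beta subunits of the sodium pump, gave 1839, 2072, 1673 and 1893 in Rh1 heads, against 1001, 1142 and 1211 in CS heads, a log2 fold of 0.72 (SE 0.07, limma adjusted p = 3.69e-06) without overlap. The claudin kune (0.62), the immunoglobulin proteins Cont (0.64) and Lac (0.64), the scaffold cora (0.64), the iron-binding Tsf2 (0.64) and pasi1 (0.82) completed the rises together with Nrx-IV (0.72) and Gli (0.65). Nrg (neuroglian), an adhesion protein that these junctions share with axons, fell. It gave 478, 435, 390 and 413 in Rh1 heads, against 640, 688 and 744 in CS heads, a log2 fold of -0.65 (SE 0.06, limma adjusted p = 2.51e-06). Beside it, dlg1, nrv2 and sdt had log2 folds of -0.35, -0.34 and -0.34.

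**Figure D4:**
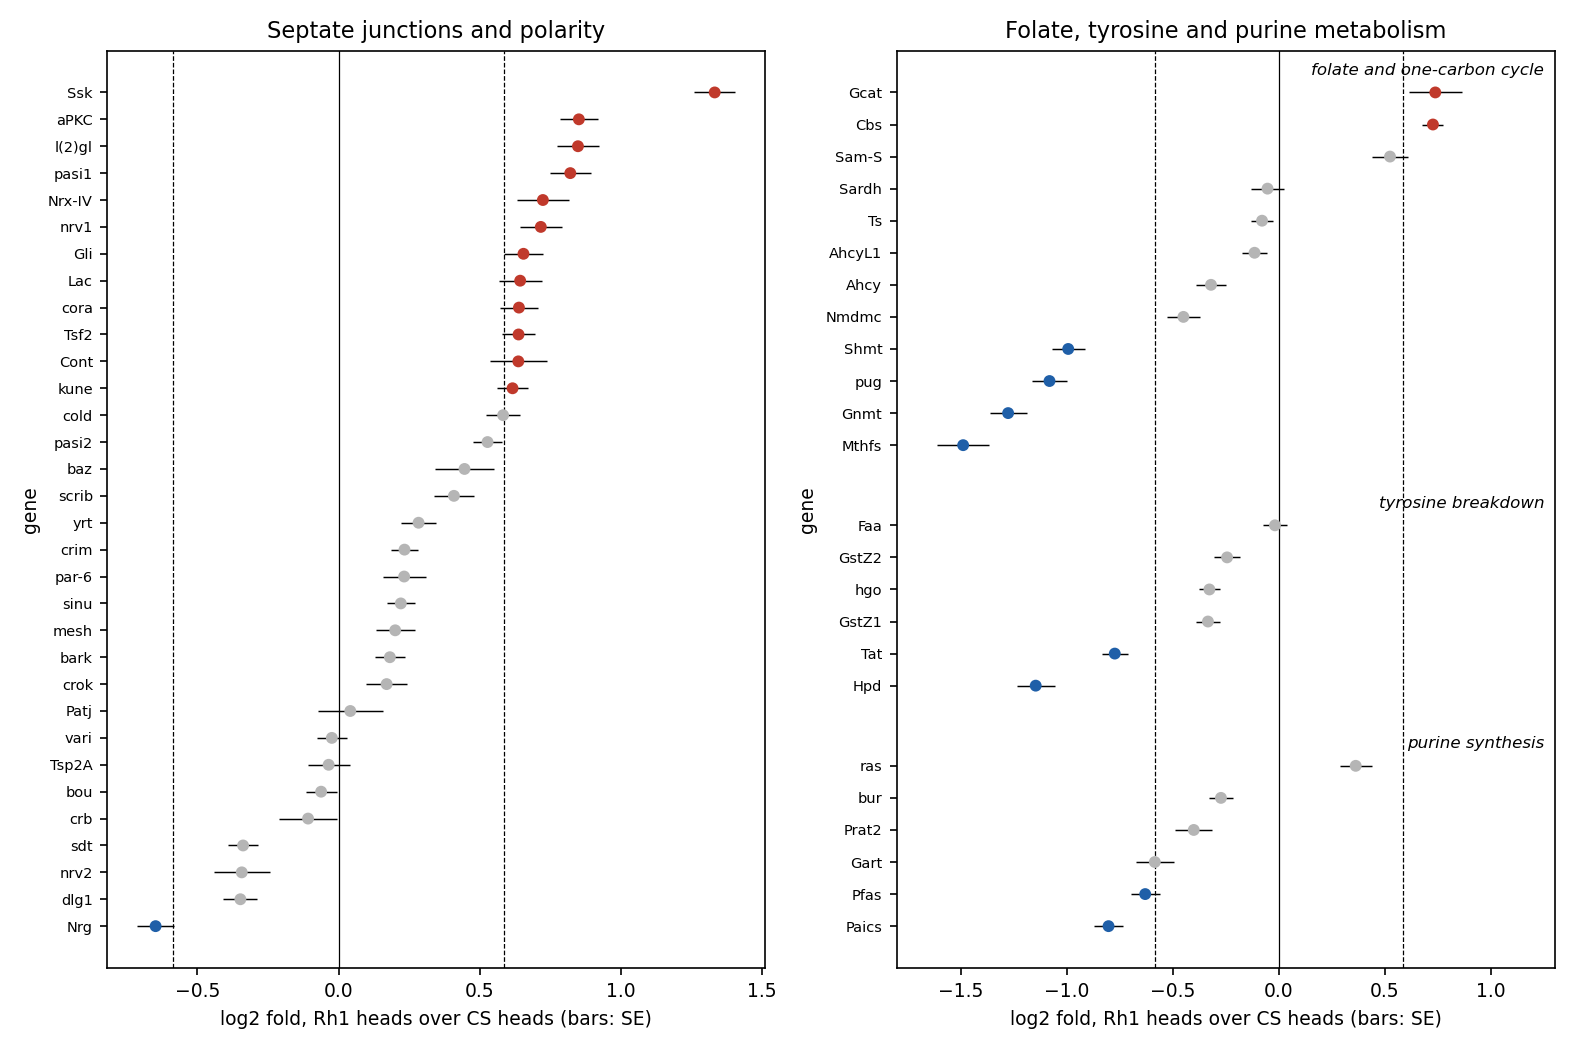
Log2 folds (horizontal axes, Rh1 heads over CS heads, bars for the SE) of septate junction and polarity genes on the left and of folate, tyrosine and purine metabolism on the right. Red points were called higher, blue called lower, grey neither, and dashed lines mark the 1.5-fold limit. On the left 12 points lie beyond the upper limit and 1 beyond the lower, and on the right Mthfs at -1.49 is the lowest.

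In the list of glia, the support cells of the brain, 5 of 21 tested genes rose (23.8%, against 4.30% of all genes). In it 0 fell, and the median was 0.18. All 5, Nrx-IV, nrv1, Gli, Cont and kune, were also in the junction list above. The glial regulator repo gave 286, 562, 508 and 532 in Rh1 heads, against 305, 411 and 496 in CS heads, a log2 fold of 0.17 that did not pass. The GABA transporter of glia, Gat, had one of 0.47 (SE 0.07, limma adjusted p = 0.000137), short of the 1.5-fold limit, and its arrays did not overlap.

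Of 23 tested genes for transmitter release 4 rose (17.4%, against 4.30% of all genes) and 0 fell, with a median of 0.28. unc-13, which primes synaptic vesicles for fusion, gave 1188, 922, 1355 and 1289 in Rh1 heads, against 400, 600 and 705 in CS heads. Syn, which tethers those vesicles, gave 498, 580, 625 and 737 in Rh1 heads, against 232, 297 and 380 in CS heads. Both stood apart between groups, with log2 folds of 0.99 (SE 0.13, limma adjusted p = 3.73e-05) and 0.96 (SE 0.12, limma adjusted p = 1.42e-05). The calcium sensor Syt7 had a log2 fold of 0.77 on its brightest probe set and 0.88 on another, whereas for nwk, which shapes the nerve terminal, the values were 0.72, -0.02 and -0.10. On the p alone 14 of the 23 passed in the higher direction, against 24.2% of all genes, and 2 in the lower. brp, of the scaffold at release sites, had 0.44 (SE 0.07, limma adjusted p = 0.000144) on its brightest probe set, under the limit, and -0.24 on another. nSyb, the vesicle fusion protein, had a log2 fold of -0.18 that did not pass.

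Genes of cyclic nucleotide signalling rose in 3 of 18 cases (16.7%, against 4.30% of all genes) and fell in 0. Their median was 0.21. The anchor of protein kinase A, Akap200, gave 2693, 2420, 3096 and 3120 in Rh1 heads, against 1336, 1438 and 1541 in CS heads, a log2 fold of 0.96 (SE 0.08, limma adjusted p = 3.15e-07). No arrays overlapped. The adenylyl cyclase Ac76E rose by 0.75 (SE 0.10, limma adjusted p = 4.08e-05). The third was the cAMP-activated exchange factor Epac, at 0.66, or 0.58 without replicate 1 of Rh1 heads. CanB2, a regulatory subunit of the calcium-dependent phosphatase calcineurin, rose by 0.73 (SE 0.07, limma adjusted p = 1.14e-06). Acetylcholinesterase, encoded by Ace, which clears the main excitatory transmitter of the fly brain, rose by 0.73 (SE 0.10, limma adjusted p = 4.74e-05), alone among 10 tested cholinergic genes. Of 28 tested neuropeptide genes 1 was called: Crz, the peptide corazonin, with 447, 501, 518 and 454 in Rh1 heads, against 715, 730 and 862 in CS heads, a log2 fold of -0.64 (SE 0.07, limma adjusted p = 7.06e-06).

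Cuticle is built from chitin fibres and the proteins that bind them. Of 82 tested cuticle protein genes 5 rose (6.10%) and 1 fell (1.22%), close to the 4.30% and 2.57% of all genes, with a median of -0.05. Single members were among the large differences. Cpr62Bc gave 5475, 5136, 5585 and 5369 in Rh1 heads, against 784, 1199 and 1468 in CS heads, a log2 fold of 2.21 (SE 0.13, limma adjusted p = 1.35e-08). Only Ugt35B1, Sclp, CG17298, CG5172 and Arc1 rose by more. Cpr49Ae (1.05), Gasp (1.04), obst-A (0.98) and Ccp84Ad (0.97), the last on a probe set that can share sequence, were the other 4, and Cpr72Ec of the lens was the fall.

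Of 36 tested enzymes of chitin and of cuticle hardening 4 rose (11.1%, against 4.30% of all genes). Of the same 36, 1 fell (2.78%, against 2.57%), and the median was 0.01. The chitinase Cht5 gave 1005, 1272, 1080 and 897 in Rh1 heads, against 459, 532 and 567 in CS heads, without overlap, and its log2 fold was 0.97 (SE 0.09, limma adjusted p = 1.04e-06). verm, a chitin deacetylase, rose by 0.95 (SE 0.13, limma adjusted p = 2.97e-05). Its close relative serp, the next tested gene along the chromosome in the RefSeq order of assembly Release 6, rose by 0.61. yellow-b, of the yellow family of cuticle colouring, fell by 0.64 (SE 0.09, limma adjusted p = 3.92e-05).

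Cytochromes P450 oxidise toxins, hormones and lipids, and this family split evenly: of 61 tested genes 6 rose and 6 fell (9.84% each, against 4.30% and 2.57% of all genes). Cyp6w1 fell the most. It gave 1020, 1060, 1015 and 928 in Rh1 heads, against 3273, 4349 and 6142 in CS heads, a log2 fold of -2.13 (SE 0.13, limma adjusted p = 2.72e-08), and no array of CS heads came down to those of Rh1 heads. Cyp6a2, which metabolises insecticides and is raised in resistant strains, gave 1126, 1248, 1019 and 1093 in Rh1 heads, against 2115, 2377 and 2667 in CS heads. Its groups were apart too, with a log2 fold of -1.07 (SE 0.08, limma adjusted p = 1.82e-07).

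On the other side Cyp4e3 gave 379, 472, 329 and 416 in Rh1 heads, against 126, 142 and 157 in CS heads, a log2 fold of 1.30 (SE 0.09, limma adjusted p = 5.58e-08). Cyp4p1 rose by 1.18 (SE 0.09, limma adjusted p = 3.26e-07). Members of the Cyp6a branch went both ways. Cyp6a23 (1.00), Cyp6a20 (0.81) and Cyp6a9 (0.79) rose and are neighbours among the tested genes in the RefSeq order, while Cyp6a17 fell by 0.91 and Cyp6a2 by 1.07. Genes of this branch resemble each other in sequence, so that a probe set may read more than 1 of them. Without replicate 2 of Rh1 heads the number of falls was 4.

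Of 18 tested UDP-glycosyltransferases 3 rose (16.7%, against 4.30% of all genes) and 0 fell. Their median was 0.02, while Ugt35B1 had 3.67. Ugt35C1 gave 366, 355, 335 and 344 in Rh1 heads, against 118, 124 and 146 in CS heads, a log2 fold of 1.27 (SE 0.06, limma adjusted p = 6.66e-10), with tight and separate groups. Ugt49C1 rose by 0.69 (SE 0.07, limma adjusted p = 1.57e-06). Of 26 tested glutathione S-transferases 1 was higher and 1 lower, and of 13 esterases and 12 antioxidant enzymes 0 were called. On the p alone 1 esterase was higher and 3 were lower, and 1 antioxidant enzyme was higher and 4 were lower. The shares of all genes were 24.2% and 30.0%. Metallothionein MtnA, which binds copper, was among the brightest genes, with a log2 fold of 0.62, or 0.58 without replicate 6 of CS heads.

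Folate carries single carbons that come from serine and glycine and go into purines and methyl groups. Of 19 tested genes of amino acid and one-carbon metabolism 5 fell (26.3%, against 2.57%) and 1 rose, with a median of -0.32. A shorter list of 12 folate and methyl-cycle genes, chosen after values were seen and sharing members with the first, had 4 falls and 2 rises, with a median of -0.22.

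Mthfs, which returns a stored folate to the cycle, gave 235, 248, 218 and 216 in Rh1 heads, against 539, 749 and 903 in CS heads, a log2 fold of -1.49 (SE 0.12, limma adjusted p = 4.41e-07). Gnmt, which spends methyl groups on glycine, gave 443, 471, 488 and 487 in Rh1 heads, against 1003, 1211 and 1362 in CS heads, a log2 fold of -1.28 (SE 0.09, limma adjusted p = 7.78e-08). In both cases the highest array of Rh1 heads lay far under the lowest of CS heads. pug, an enzyme with several activities that interconverts folates, gave 607, 635, 492 and 579 in Rh1 heads, against 1077, 1291 and 1381 in CS heads. Shmt, which moves the carbon of serine to folate, gave 990, 1003, 862 and 966 in Rh1 heads, against 1711, 1888 and 2287 in CS heads. These too stood apart, with log2 folds of -1.08 (SE 0.08, limma adjusted p = 2.81e-07) and -0.99 (SE 0.08, limma adjusted p = 3.05e-07).

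The rises among these genes were Cbs, which draws homocysteine out of the methyl cycle toward cysteine, at 0.73 (SE 0.05, limma adjusted p = 7.75e-08), and Gcat, which makes glycine in the breakdown of threonine, at 0.74. The value of Gcat was 0.57 without replicate 4 of Rh1 heads, under the limit. Sam-S, which makes the methyl donor, had a log2 fold of 0.52, and Ahcy, which clears its product, one of -0.32.

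Tyrosine breakdown fell at its first steps. Tat, which removes the amino group, gave 1692, 1624, 1437 and 1496 in Rh1 heads, against 2562, 2687 and 2794 in CS heads, and Hpd, the next enzyme, gave 1161, 1037, 935 and 1051 in Rh1 heads, against 2012, 2303 and 2795 in CS heads. Their log2 folds were -0.77 (SE 0.06, limma adjusted p = 3.05e-07) and -1.15 (SE 0.09, limma adjusted p = 2.61e-07), without overlap. The last enzyme of the path, Faa, had one of -0.02 that did not pass. In the list of 6 such genes, chosen after values were seen, these 2 were called and 5 passed on the p alone in the lower direction, against 30.0% of all genes. Oat, which breaks down ornithine, fell by 0.89 (SE 0.10, limma adjusted p = 8.02e-06).

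Of 6 tested genes of purine synthesis 2 fell and 0 rose, again in a list chosen after values were seen. Paics gave 3958, 4049, 3719 and 4377 in Rh1 heads, against 6198, 7210 and 7599 in CS heads, with a log2 fold of -0.80 (SE 0.07, limma adjusted p = 5.59e-07). Pfas followed at -0.63 (SE 0.07, limma adjusted p = 5.96e-06) and Gart at -0.58, just short of the limit. These 3 enzymes act on neighbouring steps of the pathway. The guanine-branch enzyme ras had a log2 fold of 0.36.

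Sugar and fat genes added a few falls. Of 14 tested genes of glycolysis and gluconeogenesis 3 fell (21.4%, against 2.57% of all genes) and 0 rose, with a median of -0.10. Pgm1, which links glycogen to glucose 6-phosphate, gave 1591, 1925, 1427 and 1509 in Rh1 heads, against 2270, 2981 and 3584 in CS heads, without overlap and with a log2 fold of -0.87 (SE 0.12, limma adjusted p = 3.42e-05). The hexokinase Hex-C (-0.87), and the gluconeogenic enzyme fbp (-0.75) were the others. Amy-d, one of a pair of nearly identical amylases that an array may not separate, gave 323, 380, 301 and 324 in Rh1 heads, against 686, 849 and 1076 in CS heads, a log2 fold of -1.30 (SE 0.12, limma adjusted p = 7.94e-07). Taldo, of the pentose phosphate path, fell by 0.84 (SE 0.12, limma adjusted p = 4.48e-05).

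Of 21 tested genes of the fat body and fat storage 3 fell (14.3%, against 2.57% of all genes) and 0 rose. The median was -0.02. Apoltp, which loads lipid onto carrier particles in the blood, gave 897, 916, 861 and 888 in Rh1 heads, against 1495, 1577 and 1759 in CS heads, a log2 fold of -0.82 (SE 0.06, limma adjusted p = 2.18e-07). No array of Rh1 heads reached the lowest of CS heads. The major secreted proteins of that tissue went less far: Lsp2 had a log2 fold of -0.02 and apolpp one of -0.28. All 4 tested acyl-CoA binding proteins, in a list chosen after values were seen, passed on the p in the lower direction, and Acbp2 (-1.17, SE 0.14, limma adjusted p = 1.59e-05) and Acbp4 were called. Acbp4 had -0.65 on a probe set that can share sequence and -0.09 on another.

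The yolk protein Yp1, made by female fat body, gave 28185, 26347, 30399 and 29055 in Rh1 heads, against 26795, 29476 and 32079 in CS heads, and did not pass. Yp2 had a log2 fold of -0.35 (SE 0.05, limma adjusted p = 0.000123). msl-2, a male protein of dosage compensation, rose by 0.76 (SE 0.08, limma adjusted p = 2.85e-06). fit, a transcript of female head fat body, gave 2995, 4139, 2787 and 2647 in Rh1 heads, against 5200, 7998 and 9120 in CS heads, a log2 fold of -1.29 (SE 0.15, limma adjusted p = 9.33e-06). These belong to a list of 15 tested genes of yolk proteins, sex determination, dosage compensation and sex-biased head transcripts. Of the 15, 1 rose (6.67%, against 4.30% of all genes) and 2 fell (13.3%, against 2.57%), with a median of -0.05. The other fall was Obp99b, an odorant-binding protein, with 291, 302, 242 and 267 in Rh1 heads, against 432, 754 and 932 in CS heads, a log2 fold of -1.25 (SE 0.17, limma adjusted p = 4.08e-05). Cyp4d21 (0.11) and sxe2 (0.10) did not pass. The sex ratio of the heads was not given, and its part in these values was not tested.

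Of 62 tested nuclear genes of oxidative phosphorylation 3 fell (4.84%, against 2.57%) and 0 rose, while 41 passed on the p alone in the lower direction, against 30.0% of all genes, and 0 in the higher, with a median of -0.25. ND-20L gave 181, 185, 190 and 184 in Rh1 heads, against 290, 300 and 311 in CS heads, a log2 fold of -0.61 (SE 0.04, limma adjusted p = 1.35e-07). The other 2 were ND-PDSW and COX7A, and without replicate 2 of Rh1 heads 5 genes were called. Ribosomal genes did not move to the limit. Of 34 cytosolic ribosomal genes 0 were called in limma, with 7 higher and 6 lower on the p alone and a median of 0.00. Of 64 mitochondrial ones 0 were called, with 6 higher and 28 lower on the p alone and a median of -0.11. Of all genes 24.2% were higher and 30.0% lower on the p alone.

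Among genes that handle messenger RNA, eIF4E1, which binds its cap, gave 1120, 1322, 1342 and 1290 in Rh1 heads, against 574, 685 and 802 in CS heads, a log2 fold of 0.88 (SE 0.09, limma adjusted p = 2.27e-06). The groups did not overlap. The fly's own poly(A)-binding protein gene, pAbp, averaged 7554 ± 722 in the 4 arrays of Rh1 heads and 6458 ± 599 in the 6 of CS heads (SD), a log2 fold of 0.23 (SE 0.08, limma adjusted p = 0.0266), under the limit. Nopp140, a nucleolar chaperone, rose by 0.72 (SE 0.07, limma adjusted p = 2.89e-06). Of 43 tested splicing and processing genes 4 rose (SF2 at 0.65, glo at 0.63, Cpsf5 at 0.61 and SF1 at 0.60) and 1, U2af50, fell. These were 9.30% and 2.33%, against 4.30% and 2.57% of all genes. The number of rises was 2 without replicate 4 of Rh1 heads, without replicate 1 of CS heads or without replicate 3 of CS heads.

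Immune genes were called in both directions, with falls in more of the immune lists than rises. Of 18 tested antimicrobial and bomanin peptides 2 fell (11.1%, against 2.57% of all genes), BomS2 (-0.81) and BomBc3 (-0.77), and 0 rose. Of 24 tested genes of recognition and of the Toll and Imd pathways 1 rose (4.17%, against 4.30%) and 2 fell (8.33%). The rise was that of spz, the ligand of Toll. It gave 255, 244, 225 and 282 in Rh1 heads, against 94.2, 110 and 140 in CS heads, a log2 fold of 0.96 (SE 0.08, limma adjusted p = 6.83e-07). PGRP-SB1, a peptidoglycan-degrading protein, fell by 0.76 (SE 0.10, limma adjusted p = 2.76e-05). Tab2 fell by 0.59, a call that ended without replicate 1 or 3 of Rh1 heads or replicate 6 of CS heads. The opsonin-like Tep3 rose by 1.09 (SE 0.10, limma adjusted p = 1.39e-06), the 1 call among 6 tested Tot and Tep genes. The antibacterial Listericin, in no list, rose by 1.15 (SE 0.11, limma adjusted p = 1.33e-06). Of 13 tested genes of phenoloxidase, clotting and hemocytes 2 fell (15.4%) and 0 rose. The clotting protein fon fell by 0.82 (SE 0.12, limma adjusted p = 7.86e-05). trol fell by 0.62, a call that ended without replicate 1 of CS heads. Of 17 tested serpins 1 fell (5.88%), Spn88Eb at -0.67, and 0 rose.

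Odorant-binding proteins carry odours and other small molecules, and of 22 tested 1 rose and 2 fell. These were 4.55% and 9.09%, against 4.30% and 2.57% of all genes. The rise was that of Obp99a, with 4353, 5615, 3915 and 3697 in Rh1 heads, against 1319, 1826 and 2458 in CS heads, a log2 fold of 1.21 (SE 0.15, limma adjusted p = 1.95e-05). Besides Obp99b, described above, Obp56a fell. It gave 172, 186, 141 and 170 in Rh1 heads, against 239, 328 and 364 in CS heads, a log2 fold of -0.79 (SE 0.10, limma adjusted p = 1.53e-05). The groups did not overlap. Of 47 tested odorant, gustatory and ionotropic receptors 1 was called, Gr21a, at 0.84 with overlapping arrays. Of 18 tested clock and cycling genes 1 rose and 1 fell (5.56% each). Slob, which binds the Slowpoke potassium channel and cycles daily, gave 754, 720, 715 and 659 in Rh1 heads, against 1296, 1348 and 1467 in CS heads, a log2 fold of -0.90 on its brightest probe set and -0.17 on another. tim, a core clock gene, rose by 0.61 on one probe set, or 0.58 without replicate 5 of CS heads, and had 0.60 on another. The time of day of collection was not given.

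Of 77 lists besides phototransduction 16 had 0 genes called, among them lysozymes, ppk channels, insulin and TOR signalling and the cell cycle. Gut serine proteases were also without a call, with a median of -0.26. On the p alone 14 of 18 passed in the lower direction and 0 in the higher, against 30.0% and 24.2% of all genes. This was not particular to them. Of 28 tested mucin and Osiris genes 16 passed lower and 1 higher. Of 47 tested odorant, gustatory and ionotropic receptors 20 passed lower and 2 higher.

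**Figure D5:**
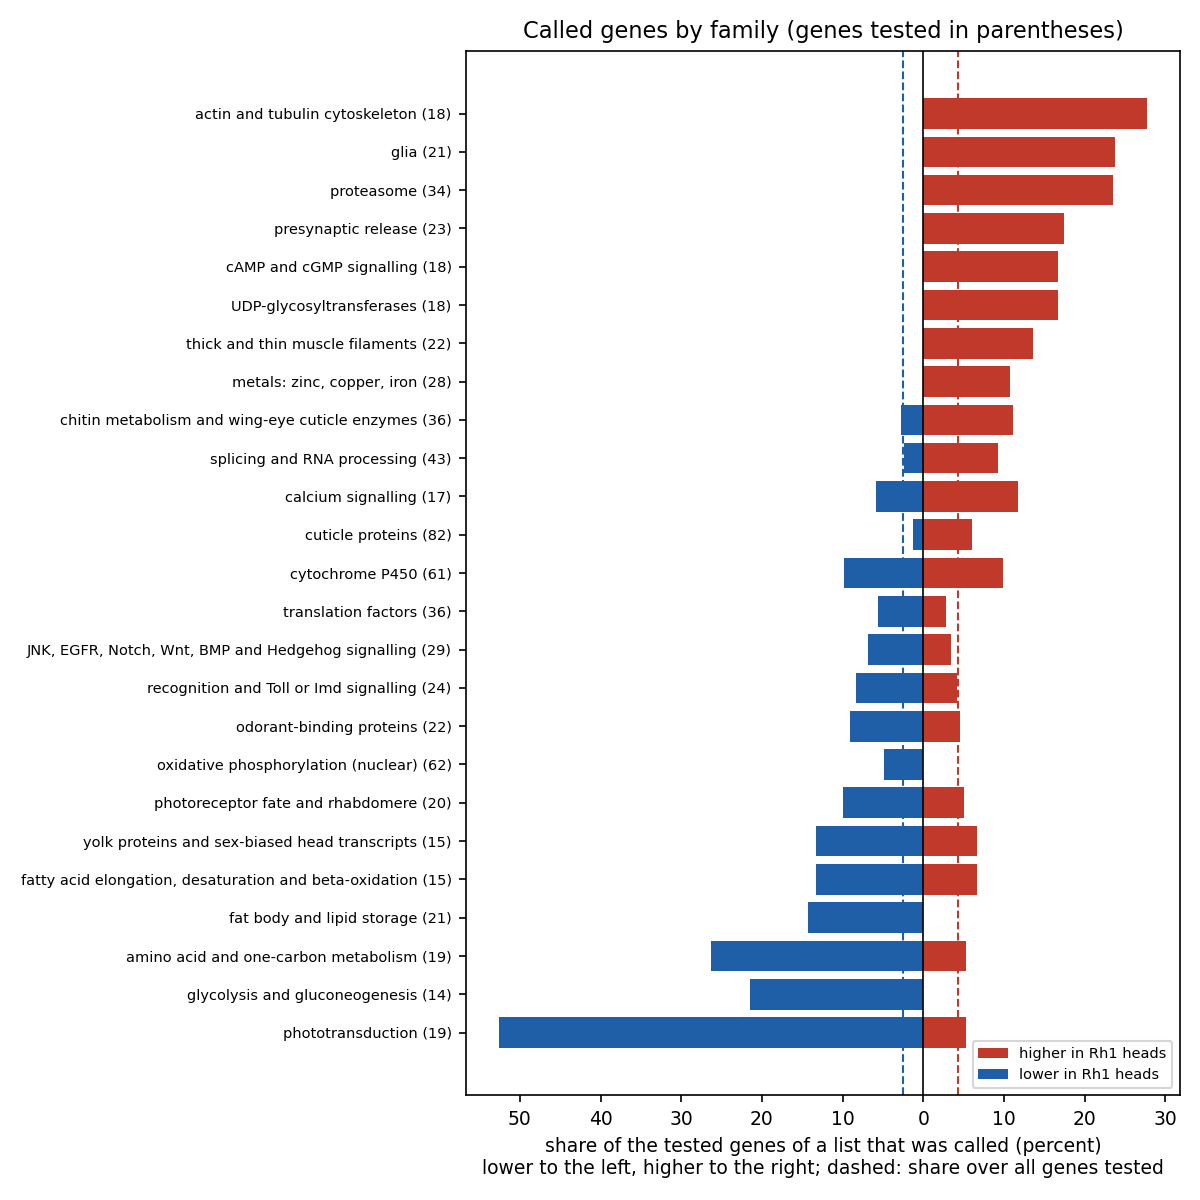
Share of the tested genes of each list that was called (horizontal axis, percent). Genes higher in Rh1 heads are to the right in red and genes lower to the left in blue. The 7 lists chosen after their values were seen are left out. Shown are the 25 lists with at least 3 calls among the other 78, which were chosen with earlier results of these data known. Dashed lines mark the shares over all genes, 4.30% and 2.57%. Of these lists cytoskeleton, glia and proteasome reach farthest right, and phototransduction, amino acid metabolism and glycolysis farthest left.

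Along the chromosomes, in the RefSeq gene order of assembly Release 6, called genes formed 24 runs of adjacent tested genes that changed the same way, holding 52 of the 536 called genes placed. The longest held 3 genes. Besides the Cyp6a run, these were the group of CG13116 (0.69), CG13117 (1.69) and Cyp4e3 (1.30), that of Taf3, CG33941 and Asator, and that of Septin4, CG4678 and CG9676. Pairs of called neighbours in opposite directions numbered 24. In that order 7793 tested genes were placed. How many runs or pairs would arise from the overall shares of 4.30% higher and 2.57% lower was not worked out. No grouping along the chromosomes is therefore read from these counts.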

How the data were processed

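Whole-head RNA of 4 Rh1 head and 6 CS head samples was measured on 1 array each, grouped by the labels. Per the labels' protocols, heads were frozen, sieved off and extracted with Trizol and a spin column. The authors deposited 1 linear intensity per probe set and array for 14010 probe sets. How probes were summarised and scaled by the authors is not given in the sources used here.

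Trimmed means of the deposited intensities (2% off each end) ran from 309.2 to 370.9, so arrays were scaled to 1 mean. The test took the 9776 probe sets at or above the 30th percentile of mean log2(signal + 32) over the 14 arrays. It was a two-sided linear model with group as the single factor (limma 3.58.1, R 4.3.3, moderated by eBayes with a trend), with Benjamini-Hochberg adjustment over them. Of 672 probe sets (6.87%) past both limits, 86 had no or several genes in the platform table and were not named. The 44 control probe sets were left out of the test. A gene was its brightest probe set; 12442 probe sets had 1 gene, and 12393 of these matched the RefSeq table of assembly Release 6, used for names and gene order only. ninaE, the gene of the driver's rhodopsin, was not analysed here. The number of arrays limits the precision. On simulated data (9776 probe sets, 200 changed, 10 draws) the fit recovered 100% of 2-fold and 99.9% of 3-fold changes. The noise was independent between arrays, with these arrays' own spread, so changes that large were almost sure to be recovered. In the data 4241 of 7816 genes passed on the p, so the simulated setting was unlike the data. Changes between 1.5-fold and 2-fold, the size of 281 of the higher and 154 of the lower calls, were not simulated.

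The 78 gene lists and the members were chosen with earlier results of these data known, and list entries that matched genes of another function were taken out after matching. Another 7 lists were chosen after their values were seen (septate junctions, purine synthesis, folate and one-carbon cycle, tyrosine breakdown, acyl-CoA binding proteins, cathepsins, tetraspanins). Genes were named by rule: outside phototransduction the 20 largest rises and 20 largest falls without overlap between arrays, and the 3 largest such calls of each list with the largest of the other direction. Further list members, GstD3, cold, CG4270 and Gart at the limit, markers, genes that did not pass, and cib, Listericin, pAbp and the neighbouring runs were named with their values in view. The alternatives changed the pseudocount, the filter, the scaling or the probe set rule, or used limma treat, array weights, eBayes without trend, a fit of all 14 arrays, a replicate block and leaving out each array. The labels did not say that replicate numbers paired the samples, and the main fit did not pair them. Figures were drawn with matplotlib 3.10.9.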

Additional observations from a re-analysis of the deposited data

Results flagged for a closer look

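Of 314 groups of values checked, each a named gene in Rh1 heads or in CS heads, 12 held an array far from the others of its group, where chance flags about 1 in 20 groups. In Rh1 heads there were 4, all at replicate 2. CG17298 read 3922 there, against 2321 to 2487 on the other arrays of Rh1 heads, and Ugt35B1 read 2607, against 1937 to 2020. The proteasome scaffold Rpn6 read 3035, against 2146 to 2258, and fbp, of gluconeogenesis, 1012, against 801.9 to 824.2.

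In CS heads there were 8, of which 6 lay at replicate 5. On that array CG17298 read 433.8 (others 328.7 to 363.5) and the sterol carrier Npc2a 3952 (others 3184 to 3445), both above the rest. The remaining 4 lay below: the antiviral gene pst at 492.9 (others 743.4 to 846.2), CG3857 at 340.3 (others 452 to 512.4), the chromatin regulator trx at 349.9 (others 450.2 to 513.3) and the channel gene subdued at 93.43 (others 104.8 to 110.9). Ubc2 read 394.7 at replicate 4 of CS heads (others 432.4 to 453.8), and fit 5200 at replicate 6 (others 7445 to 9120). Each of these genes kept its call without the array named.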

How the results depend on the processing

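Under 26 alternatives none of the 157 genes given by the naming rule changed direction. The rule took genes whose arrays did not overlap, so a reversal on the same probe set was hardly possible. Its absence is therefore no support for these genes. Of the 157, 120 kept their call under all but the 2 stricter rules. Most alternatives kept the brightest probe set of a gene, so they do not show how its other probe sets moved. Among all called genes 58 had another tested probe set, and 14 had one of opposite sign, of any size. Of the other 380 called genes 0 changed direction, which their separation and fold again made nearly sure, and 232 kept their call in this way. Among those that the text names, leaving out a single array ended the call of CG33941, CG4270, CG4678, Cont, Cpsf5, Gr21a, Prosalpha3, Rpn11, SF1, Tsp96F, alphaTub85E and serp, whose log2 folds then were between 0.51 (Rpn11) and 0.58 in size. The stricter rules were a 2-fold limit, which left 55 genes higher and 47 lower, and limma treat, which tests against 1.5-fold itself and left 82 and 61. The 2-fold limit left 3 cuticle proteins higher, 3 cytochromes P450 higher and 3 lower, 3 amino acid genes lower, 1 cytoskeletal and 1 proteasome gene higher, and 0 of presynaptic release, glia, chitin and splicing. Treat left 2 cuticle, 1 chitin, 1 cytoskeletal and 1 proteasome gene and 0 of presynaptic release, glia and splicing. With 64 added in place of 32, 3 glial and 2 splicing genes stayed higher, and with the 50th percentile filter 2 splicing genes. Counts ran from 306 to 360 higher and from 194 to 210 lower when 1 array was left out, and splicing rises from 2 to 4. A fit of all 14 arrays ended the call of 5 of the 157, which were ninaB, Cbs, Gcat, Tsp42En and t. Other settings gave 266 to 372 higher and 166 to 226 lower. The share of calls that were higher was 62.6%, and 68% without scaling.

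Deviations of same-numbered samples from their group means had r of -0.08, -0.0387, -0.112 and 0.104 for numbers 1 to 4. Differently numbered samples ran from -0.271 to 0.203. Whether samples of the same number were handled together was not settled by this. With number as a replicate block over numbers 1 to 4, 314 genes were higher and 202 lower. The same 8 arrays without the block, an alternative added after seeing the data, gave 314 and 202 too. With equal numbers of arrays in both groups a block leaves every fold as it was, so like counts were close to fixed.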

Other observations

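Some genes in no list differed by more than most of the families described. Uhg1, a host gene of small nucleolar RNAs, read 138, 131, 124 and 133 in Rh1 heads, against a lowest of 27.6, a median of 32.4 and a highest of 35.2 in CS heads, a log2 fold of 1.36 (SE 0.06, limma adjusted p = 4.99e-10), without overlap. Iml1, a part of the GATOR complex that restrains TOR, read 774, 707, 689 and 699 in Rh1 heads, against 283, 297 and 301 in CS heads, a log2 fold of 1.19 (SE 0.05, limma adjusted p = 3.9e-10). The glypican dlp, a cell-surface proteoglycan that binds secreted signals, read 367, 418, 364 and 425 in Rh1 heads, against 149, 162 and 174 in CS heads. The inhibitor of basic helix-loop-helix factors emc read 2188, 2119, 2025 and 2442 in Rh1 heads, against 796, 1073 and 1187 in CS heads. Both stood apart between groups, at log2 folds of 1.13 (SE 0.06, limma adjusted p = 2.78e-09) and 1.05 (SE 0.10, limma adjusted p = 1.85e-06). trx, which keeps homeotic genes active, fell by 0.84 (SE 0.09, limma adjusted p = 4.1e-06), alone among 23 tested chromatin genes. Apart from trx, which is in the chromatin list and was named by the rule, these genes were chosen after their values were seen.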
